A study of Mus musculus with 6 samples.

Results

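The 9 genes described here are 8 sarcomere and sarcomere-associated genes of the heart and the developing muscle, Actc1, Tnnt2, Tnni3, Myl4, Myl7, Myh6, Mybpc3 and Ankrd1, with Acta1, the actin gene of adult skeletal muscle, as their counterpart. They were chosen by name from the 21824 protein-coding genes of the GENCODE annotation of GRCm38. For each gene, the deposited Maf and H3K27ac regions were collected in the gene and within 50 kb of its protein-coding transcript starts, which is called its window. The windows of the 9 genes did not overlap each other.

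The study mapped the bZIP factor Maf and the acetylated histone mark H3K27ac by ChIP-seq in nuclei from gastrocnemius and quadriceps, 2 limb muscles, of 2-month-old wild-type mice. It comprises 2 Maf samples, 2 H3K27ac samples and 2 input samples without antibody, and all of them come from adult muscle of the same genotype with no treatment. The 2 samples of each target are biological replicates by their labels, and how many animals went into each was not given in the sources used here. The authors wished to know which genes of mature fibres carry Maf, and how these sites relate to active promoters and enhancers.

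A sarcomere is built from paralogous proteins, and a muscle fibre changes the set it uses as it matures. Embryonic skeletal muscle and heart share several isoforms, among them cardiac actin, cardiac troponin T and an atrial light chain, and adult fibres replace them with skeletal ones. H3K27ac lies at promoters and enhancers in use, and large Maf factors bind elements that contain the core TGCTGA, of which TGCTGAC is a longer form.

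The Maf list of replicate 1 held 74 regions and that of replicate 2 held 5467, while the H3K27ac lists held 44887 and 44987 regions. All Maf regions of a list had the same length, 181 bp in replicate 1 and 281 bp in replicate 2. The median H3K27ac region was 1476 bp long in replicate 1 and 1499 bp in replicate 2. The lists give positions without read counts, so the depth behind each region is unknown, and presence, length and place in the list are the only measurements. With 2 lists per target and no counts, no test over samples could be made, and all values below are descriptions. H3K27ac regions lay at the starts of 10 of 10 skeletal myofibre markers, and at 3 of 11 heart muscle markers, Myl4, Tbx5 and Hand2. They were also found at 5 of 7 smooth muscle, 4 of 4 endothelial and 2 of 3 satellite cell markers. Over all protein-coding genes, 58.3% had such a region in at least 1 replicate. Among the heart markers, Myh6, Myl7, Myl4 and Tnni3 are also genes described here, as is Acta1 among the myofibre markers. Of the other myofibre markers, Myh4, Myh1, Tnnt3 and Mylpf are skeletal counterparts used below. The marker counts are thus not an independent check of the comparison of these genes. The nuclei came from whole muscle, so fewer cells of a type with the mark and less of the mark in each cell cannot be told apart.

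In adult limb muscle, most of the 8 cardiac and developmental genes had no H3K27ac region at a start, and the start of Acta1 lay in a broad one. Regions closer than 1 kb to a transcript start were found for 3 of the 8 cardiac and developmental genes in at least 1 replicate, namely Actc1, Myl4 and Ankrd1. Over all protein-coding genes this share was 58.3%. In both replicates it was 2 of the 8 genes, Myl4 and Ankrd1, and 55.1% of all genes. Acta1 was marked in both replicates. At Tnnt2, Tnni3, Myl7, Myh6 and Mybpc3, no start had a region in either replicate.

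**Figure D1:**
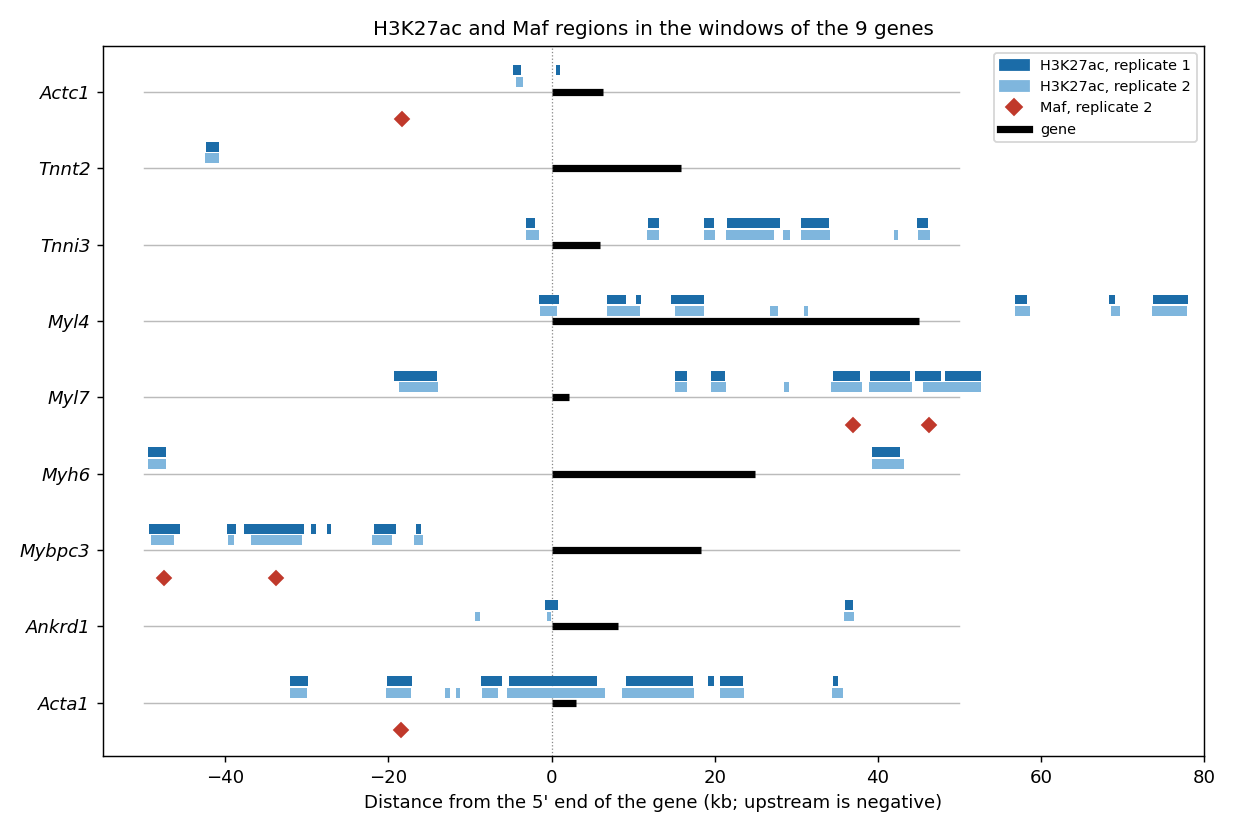
H3K27ac regions of replicate 1 (dark bars) and replicate 2 (light bars) and Maf regions of replicate 2 (diamonds) by their distance in kb from the 5′ end of each gene, with the gene as a black bar and upstream to the left. The thin line marks 50 kb on each side of the 5′ end. Windows of genes with several starts go further, such as those of Myl4 with 3 starts and Tnnt2 with 6. For Actc1, distances in the text are from its protein-coding start, which lies downstream of the 5′ end used here. Acta1, in the lowest row, has regions across its 5′ end and on both sides of it, while the 5′ ends of Tnnt2, Myl7, Myh6 and Mybpc3 lie in blank stretches.

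Actc1 encodes cardiac alpha-actin, the main sarcomeric actin of the heart and of embryonic skeletal muscle. Its start carried an H3K27ac region in replicate 1 and none in replicate 2. That region was 501 bp long, the commonest length of the list, which 13.3% of regions of replicate 1 shared, and it stood at position 41439 of 44887. A second region lay upstream in both replicates, with 898 bp in replicate 1 and 884 bp in replicate 2. Its centre was 4890 bp from the start in replicate 1 and 4603 bp in replicate 2. The regions in the window of Actc1 covered 1399 bp in replicate 1 and 884 bp in replicate 2. Acta1, which encodes skeletal alpha-actin, had 30938 bp covered in replicate 1 and 33460 bp in replicate 2. The window of Actc1 was thus the least covered of the 9 in both replicates and that of Acta1 the most covered.

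The start of Acta1 lay in a region of 10744 bp in replicate 1 and of 11955 bp in replicate 2. Only 1.12% of the regions of replicate 1 and 0.958% of those of replicate 2 were longer. From 5 kb before to 5 kb after the 5′ end, Actc1 had 1399 bases covered in replicate 1 and 884 in replicate 2. Acta1 was covered at all 10001 bases in both replicates, one of 58 such genes among the 21824 (0.266%). A further region of 8261 bp in replicate 1 and 8788 bp in replicate 2 lay beyond the 3′ end of Acta1, centred 13252 and 13043 bp from its start.

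Each of these 2 actin genes had 1 Maf region in its window, called in replicate 2 only, and both regions held TGCTGAC. Of all 5466 Maf regions of replicate 2 on the main chromosomes, 22.8% held this motif on either strand and 50.8% held the shorter TGCTGA. The Maf region of Actc1 was intergenic, centred 18969 bp upstream of the start, and stood at position 3344 of the list. It did not overlap H3K27ac in either replicate. The Maf region of Acta1 was centred 18514 bp upstream, in an intron of Nup133, a nucleoporin gene, and stood at position 2301. It lay in an H3K27ac region of 2986 bp in replicate 1 and of 3113 bp in replicate 2. In the Actc1 region the centre of the motif was 60 bp from the centre of the region, and in the Acta1 region 20 bp. Both sequences are shown to place the motif in the 2 sites, read on the minus strand of GRCm38, the strand of both genes, with TGCTGAC or its reverse complement in capitals. The first is chr2:114071716-114071996 and the second is chr8:123913125-123913405.
Actc1 Maf region: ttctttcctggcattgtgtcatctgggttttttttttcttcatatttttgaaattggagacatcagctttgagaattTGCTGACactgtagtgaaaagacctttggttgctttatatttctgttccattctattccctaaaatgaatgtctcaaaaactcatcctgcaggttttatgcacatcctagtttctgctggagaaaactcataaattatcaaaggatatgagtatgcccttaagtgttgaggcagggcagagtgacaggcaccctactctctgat
Acta1 Maf region: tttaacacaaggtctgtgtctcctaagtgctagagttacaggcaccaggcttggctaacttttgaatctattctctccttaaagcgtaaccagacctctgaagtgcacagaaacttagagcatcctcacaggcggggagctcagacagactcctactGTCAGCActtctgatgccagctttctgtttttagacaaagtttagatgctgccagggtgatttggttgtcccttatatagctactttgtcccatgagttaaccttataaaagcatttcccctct

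The 2 distances upstream are alike, and this was seen only after the values were known. A Maf region centred 18 to 19 kb upstream of a start was present at 87 genes, or 0.399% of all protein-coding genes. This range was set around the 2 distances, and the 87 genes include Actc1 and Acta1. The share thus does not measure how rare such a likeness is. The Actc1 region carried a TATAAA as well, and so did the Acta1 region, a word found in 14.4% of the Maf regions of replicate 2. Neither region held CAGCTG, an E-box core of the myogenic factors, or a Mef2 box.

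Tnnt2 and Tnni3 encode the cardiac forms of troponin T, which anchors the troponin complex to tropomyosin, and of troponin I, the inhibitory subunit of that complex. The window of Tnnt2 held 1 H3K27ac region, of 1633 bp in replicate 1 and 1677 bp in replicate 2. It was centred at -41550 bp and -41618 bp from the nearest start of Tnnt2, inside Tnni1, the slow skeletal troponin I gene, whose start was the nearest one. The unmarked stretch around the 5′ end of Tnnt2 was 201725 bp long with both replicates joined, and held the whole of Lad1, Pkp1 and Tnnt2. The median such stretch over the 10339 genes with an unmarked 5′ end was 198700 bp.

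The window of Tnni3 was covered over 15029 bp in replicate 1 and 16705 bp in replicate 2. Of its 8 joined regions, however, 1 was nearest to a start of Tnni3. It was 1110 bp long in replicate 1 and 1624 bp in replicate 2 and was centred 4262 and 4057 bp upstream, in the neighbouring gene Dnaaf3. The other regions were nearest to starts of Ppp1r12c, Eps8l1 and Tnnt1, the slow skeletal troponin T gene, which lies next to Tnni3 and shares all 8 regions of its window. The longest of them, 6546 bp in replicate 1 and 5955 bp in replicate 2, lay in Ppp1r12c, a myosin phosphatase subunit gene. Neither troponin window held a Maf region.

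Myl4 encodes the essential light chain of the atrium and of fetal skeletal muscle, Myl7 the regulatory light chain of the atrium, and Myh6 the alpha heavy chain of the heart. Myl4 was the most widely marked of the 8 genes near its start. The region over its first start was 2484 bp long in replicate 1 and 2112 bp in replicate 2. That region was centred 25 bp and 145 bp from a start of Cdc27, a gene of the anaphase-promoting complex that starts on the other strand, and at -296 bp and -416 bp from the start of Myl4. The list cannot assign it to either gene. Inside Myl4, replicate 2 had a region of 1003 bp at an inner start that replicate 1 did not have. Both replicates had a region in the gene body centred between its first and last starts, with 3984 bp in replicate 1 and 3574 bp in replicate 2. In all, 4 of the 8 joined regions of the Myl4 window were nearest to Myl4, more than for any other of the 8 genes, and the 3 farthest downstream were nearest to Itgb3, the integrin beta-3 gene.

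Myl7 showed the opposite pattern. Its window had the largest cover of the 8 genes, 21545 bp in replicate 1 and 22265 bp in replicate 2, yet 0 of its 7 joined regions were nearest to Myl7. Those downstream were nearest to Aebp1, Polm and Pold2. Around Myl7 itself 29071 bp were unmarked. Myh6 had 2 regions in its window, 1 at the start of Efs and 1 at the start of Ngdn, which covered 5636 bp in replicate 1 and 6019 bp in replicate 2. Between them 86569 bp were unmarked. This stretch held the whole of Myh6, Cmtm5, Il25 and Gm17428, and of Myh7, the beta heavy chain gene of heart and slow fibres. The unmarked stretches of Myl7 and Myh6 were both shorter than 198700 bp, the median over genes with an unmarked 5′ end.

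Mybpc3 encodes cardiac myosin-binding protein C of the thick filament. Its 7 joined H3K27ac regions covered 16625 bp in replicate 1 and 13358 bp in replicate 2, and all 7 lay upstream. The nearest starts were those of Slc39a13, a zinc transporter gene, and Spi1, which encodes a transcription factor of blood cells. None was nearest to Mybpc3, whose 5′ end lay in an unmarked stretch of 79845 bp. This too was shorter than the median of 198700 bp over genes with an unmarked 5′ end. The replicates differed here in 2 regions of 663 and 501 bp in Spi1, called in replicate 1 only.

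Ankrd1 encodes an ankyrin repeat protein that binds titin and is induced by stress in heart and skeletal muscle. Its start was marked in both replicates, with a region of 1628 bp in replicate 1 and of 501 bp in replicate 2. The first was centred 14 bp and the second 363 bp upstream of a start. Both stood far down their lists, at position 30507 of 44887 and position 40920 of 44987. A region 9101 bp upstream of Ankrd1, of 645 bp, was called in replicate 2 only. The third joined region of the window was at the start of Rpp30, an RNase P subunit gene. Cover of the window was 2534 bp in replicate 1 and 2405 bp in replicate 2.

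By covered length of the window, the lowest of the 8 cardiac and developmental genes were Actc1, Tnnt2, Ankrd1 and Myh6, in this order in both replicates. Above them stood Myl4, Tnni3 and Mybpc3, which changed places between the replicates and so do not differ beyond the spread between the lists. Myl7 was the highest of the 8 in both replicates, and Acta1 was above all of them.

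**Figure D2:**
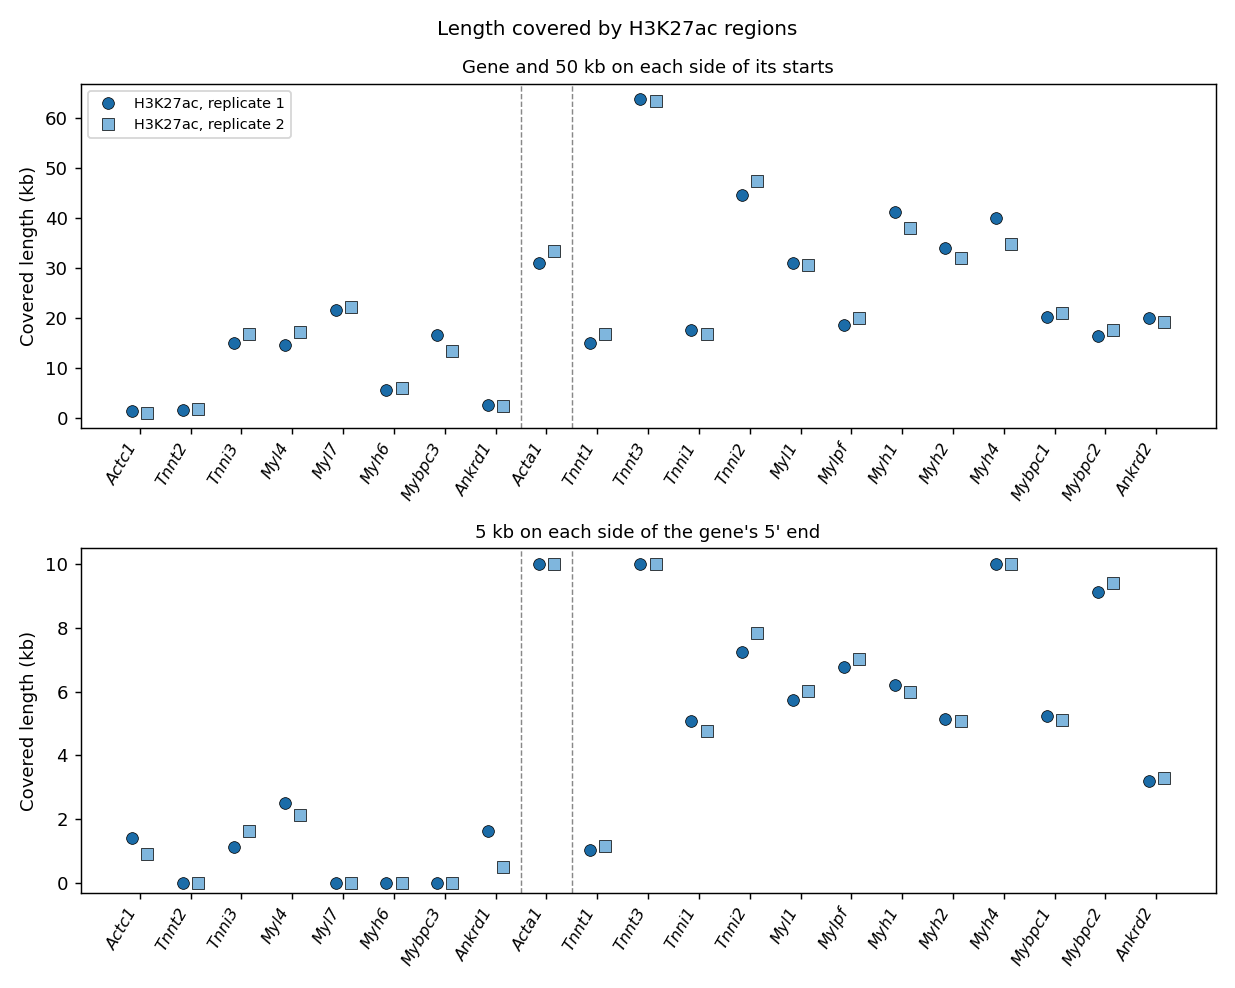
Length in kb covered by H3K27ac regions in each gene's window (top) and from 5 kb before to 5 kb after its 5′ end (bottom), for replicate 1 (circles) and replicate 2 (squares). The 8 cardiac and developmental genes stand left of the first dashed line, Acta1 between the lines and the other 12 skeletal counterparts to the right. In the bottom panel Tnnt2, Myl7, Myh6 and Mybpc3 are at 0 in both replicates, and Acta1 is at 10001 bp in both.

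The 8 genes were set beside 13 skeletal counterparts of the same protein families, namely Acta1, Tnnt1, Tnnt3, Tnni1, Tnni2, Myl1, Mylpf, Myh1, Myh2, Myh4, Mybpc1, Mybpc2 and Ankrd2. This set left out Myh7, Myl2 and Myl3, counted below with heart muscle genes, and Myh3 and Myh8, counted below with developing muscle. Of the genes left out here, only Myl3 was marked at a start. The median cover of the window with both replicates joined was 11757.5 bp for the cardiac and developmental genes, 33098 bp for the counterparts and 34926 bp for Acta1. As a share of the window the medians were 10.3% for the cardiac and developmental genes, 30.1% for the counterparts and 5.27% for all protein-coding genes. The median of the 8 genes thus stood above that of all genes and below that of the counterparts. All 8 windows and that of Acta1 held at least 1 H3K27ac region, as did 79.2% of all genes.

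The picture was different near the starts. From 5 kb before to 5 kb after the 5′ end, the median joined cover was 812 bp for the 8 genes, 6209 bp for the counterparts and 1385 bp for all protein-coding genes. Tnnt2, Myl7, Myh6 and Mybpc3 had none, like 39.5% of all genes. Within 1 kb of a start, 2 of the 8 cardiac and developmental genes had a region in both replicates. This held for 55.1% of all protein-coding genes and for 11 of the 13 counterparts. The exceptions were Tnnt1 and Tnni1, the slow fibre troponin genes. For Tnni1 the 5′ end of the gene did lie in a region in both replicates. Its protein-coding starts did not, the nearest being 3782 bp from a region in replicate 1 and 3828 bp in replicate 2. With the window set to 10 kb in place of 50 kb, the median cover was 812.5 bp for the 8 genes and 9957 bp for the counterparts.

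**Figure D3:**
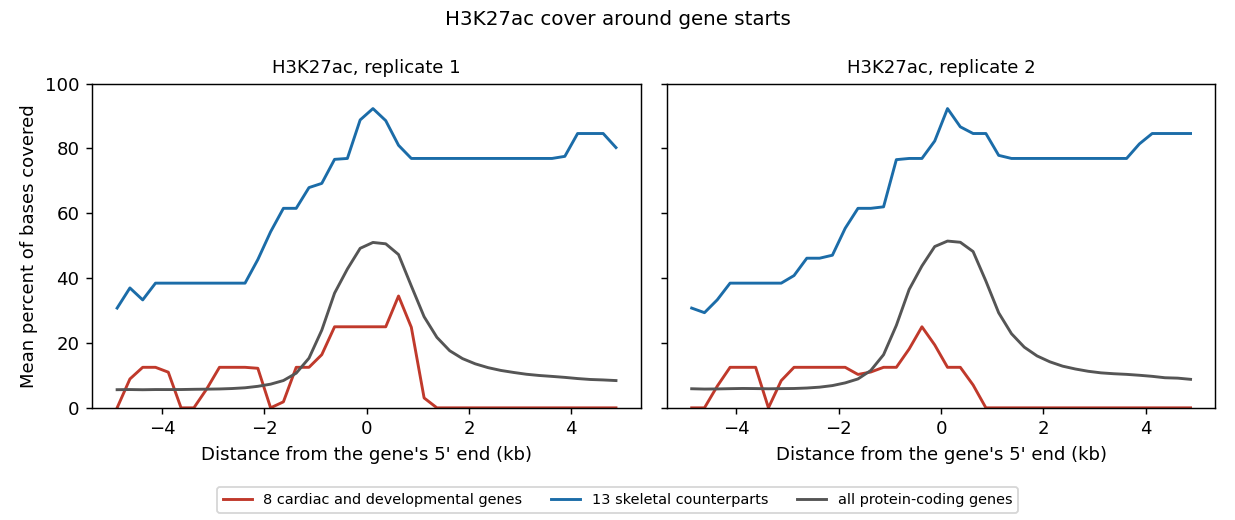
Mean percent of bases covered by H3K27ac in bins from 5 kb before to 5 kb after the 5′ end of the gene, for the 8 cardiac and developmental genes, the 13 skeletal counterparts and all protein-coding genes, in replicate 1 (left) and replicate 2 (right). In the bin centred 125 bp after the 5′ end of the gene, the 8 genes were covered over 25% of bases in replicate 1 and 12.5% in replicate 2, the counterparts over 92.3% in both, and all genes over 51.0% and 51.4%.

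Most regions of the 8 windows were nearer to a start of another gene, as was also the case over all genes. Of their 38 joined H3K27ac regions, this held for 29 (76.3%), against 4 of 10 for Acta1 and 64 of 109 for the counterparts, among which windows share regions. Over the windows of all protein-coding genes, which share regions as well, it was 56.1%. A region nearest to the gene's own start was present for 4 of the 8 genes, Actc1, Tnni3, Myl4 and Ankrd1, and for 13 of the 13 counterparts, while this held for 63.3% of all protein-coding genes. The regions nearest to the genes themselves had a median length of 1110 bp in replicate 1 (7 regions) and 943.5 bp in replicate 2 (8 regions). Those nearest to a neighbour had medians of 2173 bp and 1888 bp (27 regions in each replicate). The same medians for Acta1's own regions were 5623.5 bp (4 regions) and 2579 bp (6 regions). In all, 31 of 34 regions of replicate 1 in the 8 windows were found again in replicate 2, and 29 of 35 of replicate 2 in replicate 1. Over the whole H3K27ac lists, the same shares were 81.3% for replicate 1 and 80.2% for replicate 2.

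**Figure D4:**
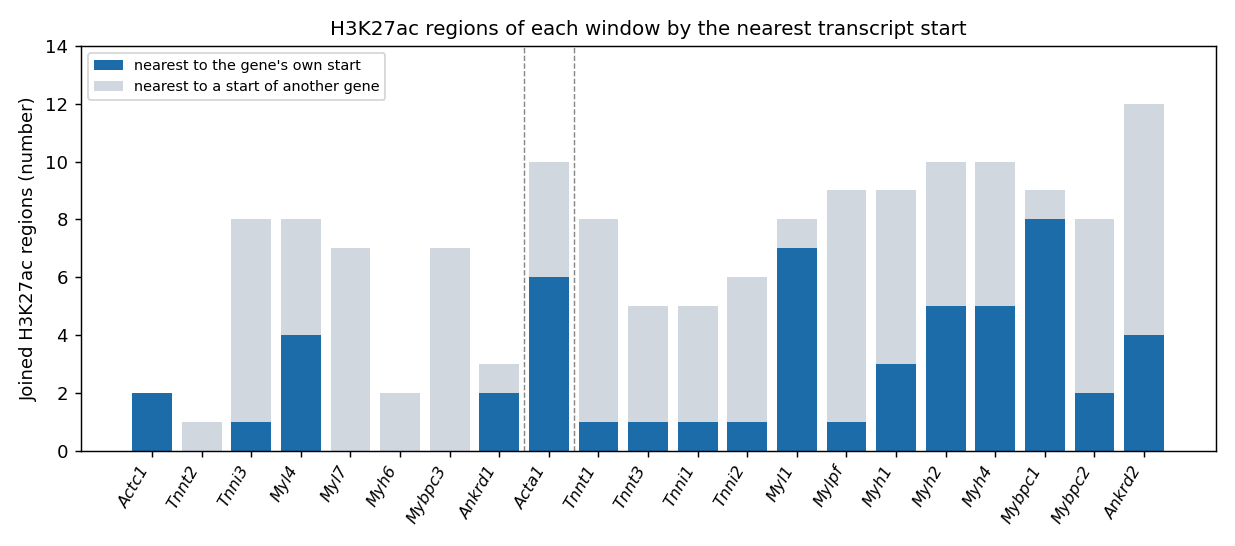
Number of joined H3K27ac regions in each gene's window, split into those nearest to a transcript start of the gene itself (dark) and those nearest to a start of another protein-coding gene (light). The 8 cardiac and developmental genes are left of the first dashed line, then Acta1, then the other counterparts. Tnnt2, Myl7, Myh6 and Mybpc3 have no dark part, and Acta1 has 6 regions of its own among 10.

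Maf regions were found in the windows of 3 of the 8 cardiac and developmental genes and of Acta1, where 30.6% of all protein-coding genes had one. All 6 of these regions came from replicate 2, and 0 of the 74 regions of replicate 1 fell in any of the 9 windows. A Maf region nearest to the gene's own start was present for Actc1 and Acta1 only, that is 1 of the 8 genes and their counterpart, against 15.3% of all genes. None of the 9 genes had a Maf region within 1 kb of a start, a place where 4.71% of all genes had one. Among the 13 counterparts, 11 had a Maf region in the window, 9 had one nearest to their own start, and Myl1, Myh4 and Mybpc2 had one within 1 kb of a start. The remaining 4 Maf regions lay in the windows of Myl7 and Mybpc3 and were near other genes.

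In the Myl7 window, both Maf regions were intergenic and nearest to Aebp1, 9429 bp and 146 bp from its start, and 46264 bp and 36981 bp downstream of that of Myl7. Neither held TGCTGA. In the Mybpc3 window, 1 Maf region was centred 252 bp from the start of Slc39a13 and had TGCTGAC 1 bp from its centre. The other lay in an intron of Spi1, at -33834 bp from the start of Mybpc3, and was among the first of its list, at position 96. It held TGCTGA 3 bp from its centre, CAGCTG at 2 places and a Mef2 box, which 7.68% of the Maf regions of replicate 2 held. Of the 6 Maf regions in the windows of the 9 genes, 5 overlapped H3K27ac in both replicates, and that of Actc1 was the exception. Of all 5467 Maf regions of replicate 2, 63.5% did so. Whether the order of the lists follows peak strength is not given in the sources used here.

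Promoter sequences of all 9 genes were found in RefSeq (GRCm38.p6), from 250 bases before to 50 bases after the RefSeq start, and searched on both strands. The CArG box, the binding word of serum response factor that actin promoters are known for, was present in 3 of the 9, Actc1, Myl7 and Acta1, and in 1.63% of all 32851 promoters. It began 47 bases before the RefSeq start in Actc1, 61 bases before it in Myl7 and 73 bases before it in Acta1. The RefSeq start of Acta1 lies 24 bp upstream of its GENCODE start, so these distances depend on the annotation. CATTCC, the TEAD factor core, was in 5 of the 9, Tnnt2, Myl7, Myh6, Ankrd1 and Acta1, and in 14.7% of all promoters, and Ankrd1 had it at 2 places. The RefSeq start of Ankrd1 lies 66 bp inside the nearest GENCODE transcript, and a longer GENCODE transcript begins further upstream, so the matches in its window can lie in transcribed sequence. The annotated Actc1 gene likewise begins upstream of its RefSeq start, at 114053548, so its promoter window lies inside that gene. Cover around the 5′ end of Actc1 was taken from 114053548 and not from the RefSeq start. TGCTGAC was in none of the 9 and in 4.67% of all promoters, and TGCTGA was in that of Ankrd1 and in 19.5% of all. CAGCTG was in Tnnt2, Mybpc3 and Acta1 and in 16.3% of all promoters, while the GATA word AGATAA was in Tnnt2 and Ankrd1 and in 11.2%. A Mef2 box was in that of Mybpc3 and in 3.19% of all promoters. The CArG box thus stood before Actc1, marked in 1 replicate, before the unmarked Myl7, and before Acta1, with its full H3K27ac cover. These 3 promoters are shown on the minus strand of GRCm38.p6, each as the 250 bases before the RefSeq start, with the CArG box and CATTCC or their reverse complements in capitals. They are chr2:114052876-114053125 for Actc1, chr11:5898783-5899032 for Myl7 and chr8:123894776-123895025 for Acta1.
Actc1 promoter: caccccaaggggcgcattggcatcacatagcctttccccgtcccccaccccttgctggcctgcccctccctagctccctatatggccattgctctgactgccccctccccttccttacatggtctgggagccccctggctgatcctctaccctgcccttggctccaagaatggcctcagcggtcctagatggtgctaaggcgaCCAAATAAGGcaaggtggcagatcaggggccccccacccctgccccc
Myl7 promoter: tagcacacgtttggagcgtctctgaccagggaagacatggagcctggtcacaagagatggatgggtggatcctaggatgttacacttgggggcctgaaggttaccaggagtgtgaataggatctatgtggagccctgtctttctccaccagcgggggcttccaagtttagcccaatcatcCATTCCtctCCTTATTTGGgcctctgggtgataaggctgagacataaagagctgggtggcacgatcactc
Acta1 promoter: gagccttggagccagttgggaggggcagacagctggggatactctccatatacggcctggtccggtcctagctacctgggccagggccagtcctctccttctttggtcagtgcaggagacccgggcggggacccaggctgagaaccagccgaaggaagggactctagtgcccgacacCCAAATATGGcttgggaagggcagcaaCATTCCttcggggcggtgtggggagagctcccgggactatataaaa

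Other genes of the same kind were counted from lists. Of 20 further heart muscle genes, 7 had H3K27ac at a start in at least 1 replicate and 6 in both. The same shares over all protein-coding genes were 58.3% and 55.1%. The marked heart muscle genes were Tbx5, Hand2, Myl3, Tnnc1, Csrp3 and Actn2 in both replicates and Pln in replicate 2 only. Several of these are used by slow fibres too, among them Myl3 and Tnnc1. Nppa, Nppb, Gata4, Nkx2-5 and Myh7 had no H3K27ac within 5 kb of the 5′ end. The median cover of the window over the 20 genes was 3.23%. A Maf region lay in the window of 3 of the 20, against 30.6% of all protein-coding genes. For 1 of the 20, Kcnj3, a Maf region was nearest to its own start, against 15.3% of all genes.

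Among the 6 actin genes, 5 had H3K27ac at a start in at least 1 replicate, against 58.3% of all protein-coding genes. Actg2, the enteric smooth muscle actin gene, had none. Actc1 was the only one of the 5 that was marked in 1 replicate alone. Actb, a cytoplasmic actin gene, was covered over all 10001 bases around its 5′ end in both replicates, as Acta1 was. Of 10 genes of developing muscle, 6 were marked at a start in both replicates, close to the 55.1% of all protein-coding genes. The 6 were Chrna1, Myog, Mymx, Des, Tnnc1 and Cdh15, while Myh3, Myh8, Chrng and Mymk were not marked. Of 9 ankyrin repeat and stress genes, 7 were marked in both replicates, including Ankrd1, against the same 55.1%, and Nppa and Nppb were not. Among these, cover around the 5′ end was 1628 and 501 bp at Ankrd1, against 3188 and 3285 bp at Ankrd2 and 9411 and 9380 bp at Ankrd23, 2 paralogs of adult muscle. Maf regions lay in the windows of 4 of the 6 actin, 9 of the 10 developing muscle and 3 of the 9 stress genes. Over all protein-coding genes this share was 30.6%. The Maf regions were nearest to the gene's own start for 3, 3 and 2 genes in the same order, against 15.3% of all genes. Within 1 kb of a start, where 4.71% of all genes had one, Maf regions lay at Actb, Myog, Ankrd23 and Xirp2.

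For Acta1 and the 4 cardiac and developmental genes with cover near the 5′ end, the most alike genes were found by the H3K27ac cover from 5 kb before to 5 kb after the 5′ end, as the share of bases covered in both genes among those covered in either, averaged over the 2 replicates. For Actc1 they were Atf3 (0.67), Tm4sf19 (0.62) and Ccdc183 (0.61). For Tnni3 they were Cela3b (0.79), Slc6a16 (0.78) and Pebp4 (0.77), and for Ankrd1 they were Recql5 (0.74), Klhdc9 (0.71) and Zfp382 (0.71). Myl4 was closest to Ribc1 (0.94). Acta1 had a share of 1 with each of the other genes covered in full, which are 58 with Acta1, and of which AI837181, Actb and Aldoa come first in the alphabet.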

How the data were processed

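Maf and H3K27ac ChIP-seq regions of adult mouse muscle were analysed from the 4 lists that the authors deposited, 1 for each sample. The 2 input samples were not analysed here. The deposited lists hold positions with a score of 1 for every region, and no read counts, so depth is unknown. According to the methods and the submitters' processing notes, the reads were processed with bcl2fastq 2.17, Trim Galore, Bowtie2 (2.3.2 in the notes) and Picard 2.10.3 on mm10 (GRCm38), and the notes name HOMER. The study states a false discovery rate for its Maf peaks, and the other caller settings and the use of the input are not given in the sources used here. The caller fixes the region lengths and could thus set the covered lengths.

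From the lists on, positions lay within the GRCm38 chromosomes. Replicates were joined where regions shared or touched bases, and overlap needed 1 base. The basic GENCODE vM21 annotation gave 41394 starts of 21824 protein-coding genes on 19 autosomes, X and Y. A start counted as marked within 1 kb. Words were searched on both strands, namely the Maf core TGCTGA and its longer form TGCTGAC, which contains it, the E-box CAGCTG, the TEAD core CATTCC, the TATA box TATAAA, the GATA word AGATAA, the CArG box and the Mef2 box, which can overlap a TATA box. No statistical test was run. The window, start, nearest-start and cover procedures were checked on simulated data with known answers. Python 3.11.15, numpy 2.4.6, pysam 0.24.0 and matplotlib 3.10.9 were used.

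The members and the lists were chosen with earlier results of these data known. Genes were named if they were members, skeletal counterparts, the nearest gene of a window's region, listed genes with a marked start (or without one where these are fewer), or the 3 genes most alike in cover, of which some are not reported here. Alternatives were the replicates alone, the first 50% of each list, other windows and start distances, the 5′ end only, shared stretches, nearest regions and overlap rules.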

Additional observations from a re-analysis of the deposited data

How the results depend on the processing

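With 1 replicate left out, the count of genes with a Maf region ranged from 0 to 4, that of Maf regions from 0 to 6 and that of Maf regions overlapping H3K27ac from 0 to 5, because Maf replicate 1 had none. The median H3K27ac cover ranged from 9688.5 to 10085 bp for the cardiac and developmental genes and from 30593 to 30932 bp for the counterparts, and cover of Acta1 ranged from 30938 to 33460 bp. The first 50% of each list left 2 genes with H3K27ac at a start and 27 H3K27ac regions, and cover of 8925 bp for the cardiac and developmental genes, 31550 bp for the counterparts and 33030 bp for Acta1. A window of 10 kb left 0 genes with Maf, 0 Maf regions, 5 genes with H3K27ac, 14 H3K27ac regions and cover of 812.5, 9957 and 15863 bp in the same order. A window of 100 kb gave 10 Maf and 87 H3K27ac regions and cover of 20645.5, 44039 and 44039 bp. Stretches shared by both H3K27ac replicates covered 9061.5, 28427 and 29472 bp. With the 5′ end alone, the 8 genes had 9158 bp. Only regions nearest to the gene left 2 genes with Maf, 2 Maf regions, 5 genes with H3K27ac and 15 H3K27ac regions. Without Tnnt1 and Tnni1, an alternative chosen after seeing the data, the counterparts had 34926 bp. With both replicates joined, and in the 7 of these settings for which cover of all 3 kinds was computed, Acta1 had between 2.13 and 19.5 times the median cover of the 8 genes.

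With H3K27ac of the same replicate number only, as a replicate block, 5 of the 6 Maf regions overlapped H3K27ac, the same count as with both replicates. This count could not differ, because the 5 regions overlapped H3K27ac in each replicate and that of Actc1 in neither. No other paired analysis was possible because the lists hold no counts. Unknown depth limits every count of absent regions, since the lists do not show signal below the caller's threshold, and the Maf lists differ from each other in number far more than the H3K27ac lists do.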
